A study of Mus musculus with 5 samples.

Results

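The type 1 program is the arm of lymphocyte biology built on interferon-gamma (IFN-γ). It was examined here as 8 genes, chosen by symbol among the 47729 genes of the deposited counts: *Ifng*, *Tbx21*, *Eomes*, *Ncr1*, *Il12rb2*, *Runx3*, *Ifngr1* and *Ifngr2*. All 8 were found once each, and all 8 passed the filter on low counts that left 19011 genes for testing. RNA of sorted dermal group 2 innate lymphoid cells (dILC2s, lymphocytes without antigen receptors that reside in the skin) was sequenced in 5 libraries, 3 from wild-type (WT) mice and 2 from mice labelled *Rag1*-/-. The mice were young adult females on the C57BL/6 background, and the cells were sequenced directly after sorting, with no stimulation ex vivo. *Rag1*-/- mice lack the recombinase that assembles antigen receptor genes in every cell and therefore have no mature T and B cells, so that a difference between genotypes includes that of the host. The labels count 30 WT and 16 *Rag1*-/- mice (the methods of the study give another number of *Rag1*-/- mice), whose cells were pooled, so that a library is a pool of animals. They also name the cells of WT libraries as type 2 and those of libraries labelled *Rag1*-/- as type 3 innate lymphoid cells, whereas the study describes the RNA of both as that of dILC2s, which it gates among viable CD45+ CD90hi skin cells by leaving out those with CD2 or CD3 signal.

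In type 1 lymphocytes, IL-12 binds a receptor of the chains Il12rb1 and Il12rb2 and activates STAT4, IL-18 and IL-15 act beside it, and the T-box factors T-bet (*Tbx21*) and Eomesodermin (*Eomes*) then drive *Ifng*. Runx3 works with T-bet at these loci. IFN-γ acts on the receptor of Ifngr1 and Ifngr2, which most cells carry. ILC1s and NK cells run this program, and both carry NKp46, the product of *Ncr1*, whereas ILC2s are held in the type 2 program by GATA3 and can take on type 1 features under IL-12.

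The libraries held between 32939428 and 39477243 counts in WT, and 8050562 (pool 2) and 38922750 (pool 7) counts in those labelled *Rag1*-/-. Values are given as CPM, counts per 1000000 counts on genes, and 3 counts, taken as the smallest level the depth can show, equal 0.373 CPM in pool 2 and 0.0760 to 0.0911 CPM in the other libraries. Log2 fold changes (log2FC, *Rag1*-/- over WT) are given ± standard error, with the adjusted p of the quasi-likelihood test in edgeR. *Rag1* itself was not lower in the libraries labelled *Rag1*-/-: pools 2 and 7 held 5 and 48 counts, against 4, 0 and 5 in WT pools 5, 6 and 13 (log2FC 3.53 ± 1.03, edgeR adjusted p = 0.0866). Genotypes are therefore named as labelled. The libraries also differed in leukocyte and epidermal RNA. The summed level of 30 pan-leukocyte genes was 1103 CPM in WT pool 5, 2644 in WT pool 6 and 2633 in WT pool 13, against 8690 and 7434 CPM in pools 2 and 7, and 21 of the 29 tested were called higher. That of 15 keratinocyte genes was 28430 to 41080 CPM in WT against 7098 and 16750 CPM, and 5 were called lower. The part of these differences in the values below was not tested, and the 8 genes are therefore also given relative to the leukocyte genes, and the lists by their rescaled medians. The 15 genes of ILC2s summed to 1317 to 2518 CPM in WT against 6239 and 4231 CPM in pools 2 and 7. The sum of 10 genes of ILC3s was 392 to 498 against 994 and 662 CPM, so that genes of the labelled cell type were present in every library. In WT the ILC3 sum held on average 160 CPM of *Ahr* and 109 CPM of *Il1r1*, against 0.368 CPM of *Il22*. The sums do not say which cells held these genes. In bulk RNA, fewer cells of a type and less RNA per cell cannot be told apart.

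Sequence upstream of the members was taken from RefSeq on GRCm38.p6, the 250 bases before each annotated start. All 8 members were matched, in 10 windows. Windows were searched on both strands for a T-box half-site (AGGTGT), a RUNX site (TGTGGT) and the GAS element of promoters that respond to IFN-γ (TTCNNNGAA). These are held by 11.9%, 14% and 7.04% of all 32536 distinct windows. The windows of *Ifng*, *Ncr1* and the upstream start of *Runx3* are shown because *Ifng* is the cytokine gene of the program and the others hold matches for RUNX factors, of which *Runx3* was called higher, with matches in capitals and the strand of the gene read 5′ to 3′.
Ifng, chr10:118440796-118441045, plus strand: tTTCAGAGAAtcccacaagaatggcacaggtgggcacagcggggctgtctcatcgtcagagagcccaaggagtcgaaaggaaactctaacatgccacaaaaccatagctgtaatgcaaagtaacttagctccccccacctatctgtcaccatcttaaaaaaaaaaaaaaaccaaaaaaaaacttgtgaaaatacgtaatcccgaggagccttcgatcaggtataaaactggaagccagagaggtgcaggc
Ncr1, chr7:4337465-4337714, plus strand: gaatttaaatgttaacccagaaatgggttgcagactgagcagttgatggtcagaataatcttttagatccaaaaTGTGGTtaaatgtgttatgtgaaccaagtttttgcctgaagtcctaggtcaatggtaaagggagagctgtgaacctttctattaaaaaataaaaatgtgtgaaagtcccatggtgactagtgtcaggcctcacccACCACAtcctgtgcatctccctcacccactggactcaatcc
Runx3, chr4:135120395-135120644, plus strand: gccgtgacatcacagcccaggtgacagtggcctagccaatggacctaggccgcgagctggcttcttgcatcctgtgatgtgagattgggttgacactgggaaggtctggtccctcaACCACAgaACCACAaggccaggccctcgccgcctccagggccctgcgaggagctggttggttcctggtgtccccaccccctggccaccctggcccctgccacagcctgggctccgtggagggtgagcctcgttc
The capitals mark a GAS element at position -249 of *Ifng*, counted from the annotated start, RUNX sites at -176 and -41 of *Ncr1*, and RUNX sites at -134 and -126 of *Runx3*, the last pair and that at -41 of *Ncr1* on the opposite strand. No matches overlapped. Of the other members, *Il12rb2* holds a GAS element at -123 and *Ifngr2* a T-box half-site at -141, and no match was found for *Tbx21*, *Eomes*, *Ifngr1* or the second start of *Runx3*. A match describes letters and is no measured binding.

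Of the 8 genes, 4 were called higher in the libraries labelled *Rag1*-/-, at an adjusted p under 0.05 and a log2 fold change above 1, and none was called lower. These were *Ifng*, *Runx3*, *Ifngr1* and *Ifngr2*. Among all 19011 genes, 3.57% were called higher and 2.16% lower, 5.73% in all. The median log2 fold change of the 8 genes was 1.87, beside 0.02 over all genes tested. In 7 of the 8, both libraries labelled *Rag1*-/- lay above every WT library, which held for 21.9% of all genes, and *Il12rb2* overlapped between genotypes. The plot of CPM by library shows these values.

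**Figure D1:**
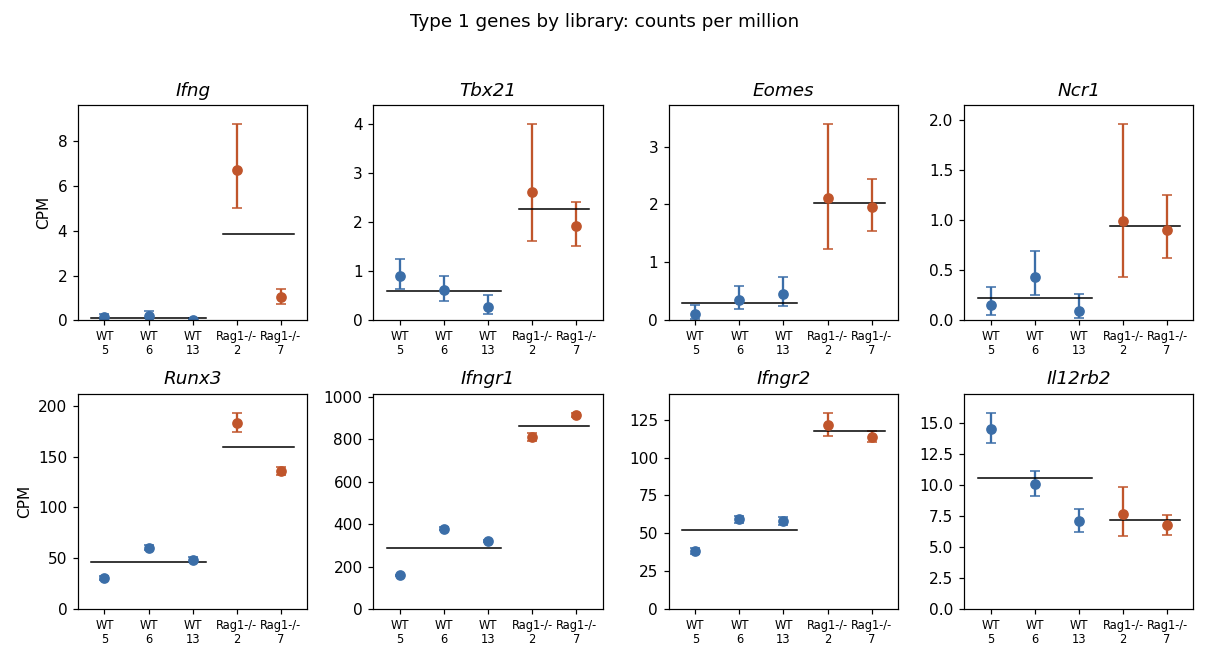
CPM of the 8 type 1 genes (vertical axes, linear, from 0) in each library (horizontal axis, WT pools 5, 6 and 13 in blue and *Rag1*-/- pools 2 and 7 in red). Points are libraries with exact 95% Poisson intervals of the count, and lines are the means of each genotype. Both *Rag1*-/- points lie above all WT points in 7 panels, and *Il12rb2* overlaps.

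*Ifng* (chromosome 10 of GRCm38, 118441047 to 118445892, plus strand) encodes the effector cytokine of the program. Of its 1295 exonic bases in GENCODE M21, 336 also lie in *Gm49751* on the same strand. Whether the annotation used for counting holds *Gm49751* was not checked, and reads there are uncertain if it does. WT pools 5, 6 and 13 held 5, 8 and 0 counts (0.129, 0.203 and 0 CPM), against 54 and 40 counts (6.71 and 1.03 CPM) for *Rag1*-/- pools 2 and 7. The WT libraries were thus close to the smallest level the depth can show, and *Rag1*-/- pool 2 stood above pool 7. The exact 95% Poisson intervals, which cover counting error only, were 5.04 to 8.75 CPM in pool 2 and 0.734 to 1.40 CPM in pool 7, so that the 6.53-fold ratio between these libraries exceeded counting error, whereas the upper bound in WT was at most 0.399 CPM. The means were 0.111 ± 0.103 CPM (SD, n = 3) in WT and 3.87 ± 4.02 CPM (SD, n = 2). *Ifng* rose by a log2 fold change of 4.99 (± 1.13, edgeR adjusted p = 0.0492). It was the only member called higher relative to the pan-leukocyte genes, by 2.84 (± 1.06, edgeR adjusted p = 0.015). Without *Rag1*-/- pool 2 the log2 fold change was 3.21 and was not past the threshold (edgeR adjusted p = 0.177).

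The T-box factors stood higher with smaller differences, and neither was called. *Tbx21* (chromosome 11, 97098071 to 97115331, minus strand) encodes T-bet. WT pools 5, 6 and 13 held 35, 24 and 9 counts, against 21 and 75 for pools 2 and 7, or 0.902, 0.608 and 0.273 against 2.61 and 1.93 CPM. The genotypes did not overlap, but the WT libraries spanned 3.30-fold and the log2 fold change of 1.93 was not past the threshold (± 0.60, edgeR adjusted p = 0.0999). *Eomes* (chromosome 9, 118478212 to 118486132, plus strand) encodes the T-box factor that marks mature NK cells. The WT pools held 4, 14 and 15 counts, against 17 and 76 for pools 2 and 7, or 0.103, 0.355 and 0.455 against 2.11 and 1.95 CPM. Of its 4155 exonic bases in GENCODE M21, 118 also lie in the antisense gene *Gm33460*. The libraries labelled *Rag1*-/- lay within 1.08-fold of each other, and the log2 fold change of 2.76 missed the threshold (± 0.67, edgeR adjusted p = 0.0576). With DESeq2, the tool of the study, both passed, *Tbx21* with an adjusted p of 0.0328 (range over the alternatives 0.0328 to 0.651) and *Eomes* with 0.00379 (0.00379 to 0.444). Relative to the pan-leukocyte genes the fold change of *Tbx21* turned negative, as given below. The ratio of pool 2 to pool 7 was 1.35 for *Tbx21* and 1.08 for *Eomes*, against 6.53 for *Ifng*, so that the libraries labelled *Rag1*-/- were further apart in the cytokine than in its T-box factors. This was not particular to *Ifng*. The cytokine genes of the ILC3 list were also higher in pool 2 than in pool 7, and were compared after their values were seen. They were *Il17a* (15.4 and 1.18 CPM), *Il22* (23.4 and 6.73 CPM) and *Il17f* (39.4 and 14.9 CPM).

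*Runx3* (chromosome 4, 135120652 to 135177990, plus strand) encodes a runt-domain factor of cytotoxic and innate lymphocytes. It had 30.5, 60.1 and 48.7 CPM in WT pools 5, 6 and 13 and 183 and 136 CPM in *Rag1*-/- pools 2 and 7. Every library labelled *Rag1*-/- was more than 2 times the highest WT library, and *Runx3* had the smallest adjusted p of the members (log2FC 1.80 ± 0.30, edgeR adjusted p = 0.0309). *Cbfb*, the partner subunit of RUNX factors, had a log2 fold change of 0.39 (edgeR adjusted p = 0.242) and was named after its values were seen.

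*Ncr1* (chromosome 7, 4337724 to 4345164, plus strand) encodes NKp46, an activating receptor of NK cells, ILC1s and some ILC3s. WT pools 5, 6 and 13 held 6, 17 and 3 counts, against 8 and 35 for pools 2 and 7, or 0.155, 0.431 and 0.0911 against 0.994 and 0.899 CPM. The genotypes did not overlap in CPM, but the 95% Poisson interval of pool 2, 0.429 to 1.96 CPM, reached below the value of WT pool 6. The log2 fold change of 2.05 was not past the threshold (± 0.79, edgeR adjusted p = 0.155, and 0.135 with DESeq2).

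The receptor chains for IFN-γ were both called higher. *Ifngr1* (chromosome 10, 19591949 to 19610229, plus strand) encodes the chain that binds IFN-γ, and had 158, 379 and 321 CPM in WT pools 5, 6 and 13 and 812 and 913 CPM in *Rag1*-/- pools 2 and 7. *Ifngr2* (chromosome 16, 91547072 to 91565169, plus strand) encodes the signalling chain, and had 38.6, 59.1 and 58.3 CPM in WT and 121 and 114 CPM in pools 2 and 7. Both chains were thus higher in each library labelled *Rag1*-/- than in each WT library, and WT pool 5 was the lowest library for both. *Ifngr1* rose by a log2 fold change of 1.63 (± 0.37, edgeR adjusted p = 0.0489) and *Ifngr2* by 1.21 (± 0.24, edgeR adjusted p = 0.0368).

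*Il12rb2* (chromosome 6, 67291318 to 67376188, minus strand) encodes the signal-transducing chain of the IL-12 receptor and was the member with a negative fold change. It had 14.6, 10.1 and 7.07 CPM in WT pools 5, 6 and 13 and 7.70 and 6.76 CPM in *Rag1*-/- pools 2 and 7. WT pool 5 was the highest library and WT pool 13 lay between those labelled *Rag1*-/-, so that the genotypes overlapped (log2FC -0.52 ± 0.36, edgeR adjusted p = 0.406). Of its 3794 exonic bases in GENCODE M21, 1519 also lie in exons of *Serbp1* on the other strand. The kit does not mark strand, so reads of that stretch cannot be told apart. *Serbp1* had 448 to 483 CPM in WT and 378 and 417 CPM in pools 2 and 7 (log2FC -0.18, edgeR adjusted p = 0.623).

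Its partner chain was called higher. *Il12rb1*, which the receptors for IL-12 and IL-23 share, had 2.40, 4.69 and 5.49 CPM in WT pools 5, 6 and 13 and 32.4 and 19.9 CPM in *Rag1*-/- pools 2 and 7 (log2FC 2.66 ± 0.40, edgeR adjusted p = 0.0306). The libraries labelled *Rag1*-/- thus stood clear of WT for this chain and not for *Il12rb2*. The difference between the fold changes of the chains was not tested.

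Levels were compared between members per kilobase of exon, as CPM divided by the union of exons. The unions include the bases of *Il12rb2*, *Ifng* and *Eomes* that also lie in other genes, given above. No correction was made for them, so the places of these members in the order are uncertain. In WT the order was *Ifngr1* (100 CPM per kb), *Ifngr2* (13.8), *Runx3* (9.28), *Il12rb2* (2.79), *Tbx21* (0.239), *Ncr1* (0.146), *Ifng* (0.0853) and *Eomes* (0.0733). The libraries of *Ifngr2* and *Runx3* overlapped, as did those of each neighbouring pair among the 4 lowest genes. In the libraries labelled *Rag1*-/- the order was *Ifngr1* (303 CPM per kb), *Runx3* (31.9), *Ifngr2* (31.2), *Ifng* (2.99), *Il12rb2* (1.91), *Tbx21* (0.912), *Ncr1* (0.615) and *Eomes* (0.489). *Runx3* again overlapped with *Ifngr2*, and *Ifng*, with 5.18 and 0.794 CPM per kb in pools 2 and 7, overlapped with *Il12rb2* and *Tbx21*. The IFN-γ receptor chains and *Runx3* were thus the abundant part of the program in both genotypes, and the T-box factors and *Ncr1* its rare part.

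Relative to leukocyte RNA the members fell into different groups. Per 1000 counts on the 30 pan-leukocyte genes, *Runx3* stood at 27.6, 22.7 and 18.5 in WT pools 5, 6 and 13 against 21.1 and 18.3 in *Rag1*-/- pools 2 and 7. *Ifngr1* had 143, 143 and 122 against 93.4 and 123 counts, *Tbx21* 0.817, 0.230 and 0.104 against 0.300 and 0.259 counts, and *Ncr1* 0.140, 0.163 and 0.0346 against 0.114 and 0.121 counts. In these 4 genes the genotypes overlapped. *Ifng* had 0.117, 0.0766 and 0 counts per 1000 in WT and 0.772 and 0.138 in pools 2 and 7, and *Eomes* 0.0934, 0.134 and 0.173 in WT and 0.243 and 0.263. Both were without overlap and higher in the libraries labelled *Rag1*-/-, *Ifng* in pool 7 by little. *Ifngr2*, with 34.9, 22.4 and 22.1 against 14.0 and 15.3, and *Il12rb2*, with 13.2, 3.82 and 2.69 against 0.886 and 0.909 counts per 1000, were without overlap and lower. Among the WT libraries, *Tbx21* and *Il12rb2* had their highest values in WT pool 5, the WT library with the lowest pan-leukocyte sum, by CPM and per leukocyte count.

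**Figure D2:**
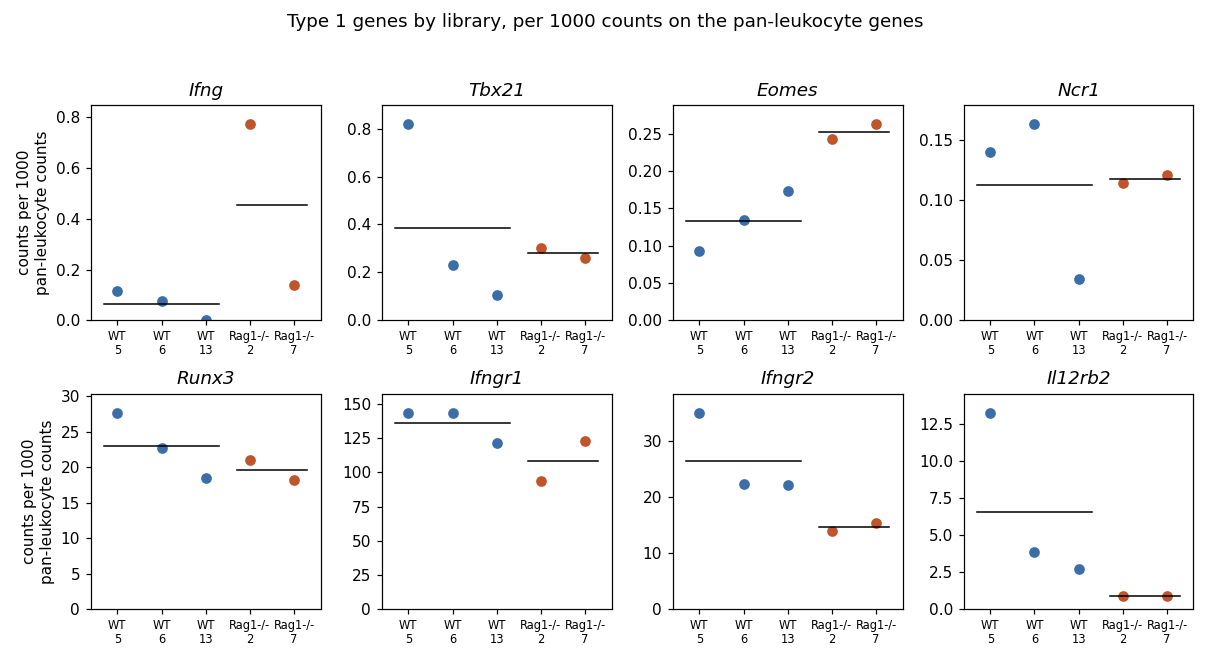
Counts of the 8 type 1 genes per 1000 counts on the 30 pan-leukocyte genes (vertical axes, linear, from 0) in each library (horizontal axis, WT pools in blue and *Rag1*-/- pools in red). Points are libraries and lines are genotype means, and the genotypes overlap for *Runx3*, *Ifngr1*, *Tbx21* and *Ncr1*.

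The fit was repeated on this scale. Scaling on the pan-leukocyte genes moved the median log2 fold change of all genes to -2.21, with 16 genes called higher and 13590 lower against 679 and 411, and that of the 8 members to -0.34. *Runx3*, *Ifngr1*, *Ifngr2* and *Tbx21* then had log2 fold changes of -0.28, -0.40, -0.91 and -0.47, none past the threshold, and *Il12rb2* was called lower (log2FC -2.92 ± 0.82, edgeR adjusted p = 0.0025). *Eomes* had a log2 fold change of 0.83 (edgeR adjusted p = 0.444) and *Ncr1* of 0.02 (edgeR adjusted p = 0.987). Relative to all genes under this scaling, the median of the members was 1.88 higher.

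**Figure D3:**
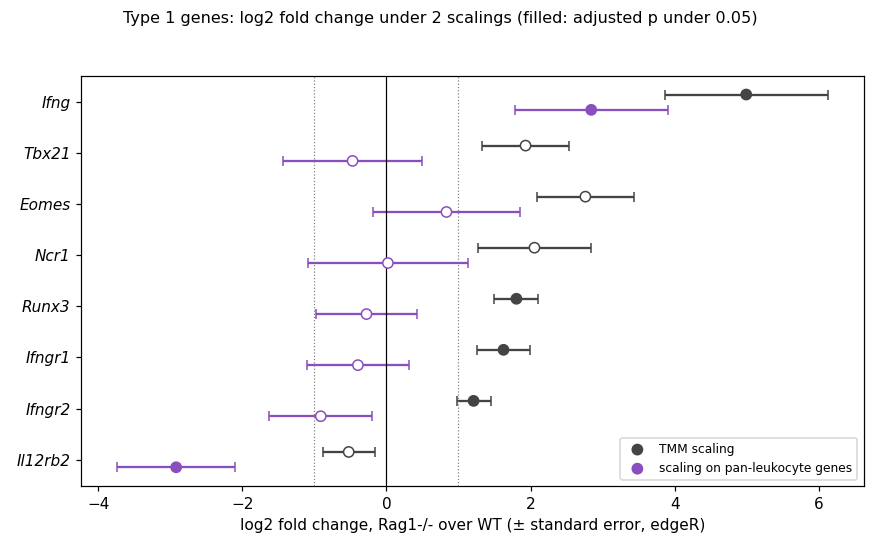
Log2 fold change of the 8 type 1 genes (horizontal axis, *Rag1*-/- over WT, edgeR, bars are ± 1 standard error) with TMM scaling (grey) and with scaling on the pan-leukocyte genes (purple). Filled points have an adjusted p under 0.05 and dotted lines mark a log2 fold change of 1 in either direction. With TMM, 4 genes are filled on the right, and with the leukocyte scaling *Ifng* is filled at 2.84 and *Il12rb2* at -2.92.

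The calls of the members depended on single libraries. Without WT pool 5, 6 or 13, or without *Rag1*-/- pool 2, no member and no gene was called by edgeR's test, while between 6 and 7 of the 8 members and between 3521 and 5200 of all genes had an unadjusted p under 0.05. Without *Rag1*-/- pool 7, 3 members were called. Leaving out either library labelled *Rag1*-/- leaves 1, which is then assumed to vary like the WT libraries. The sign of the fold change of each member was the same with every library left out, *Il12rb2* included. *Ifngr1* was not called with any library left out (edgeR adjusted p = 0.074 to 0.135). An exact permutation test on 1 gene has 10 splits of these libraries and a smallest p of 0.1.

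Upstream of the members, 6 of 16 genes for receptors and signalling of IL-12, IL-18, IL-15 and IL-27 were called higher and none lower, with a median log2 fold change of 1.18 that became -1.01 with scaling on the pan-leukocyte genes. Beside *Il12rb1*, *Il27ra*, the receptor chain for IL-27, had 17.3 ± 7.66 CPM (SD, n = 3) in WT and 90.4 ± 29.7 CPM (SD, n = 2) in the libraries labelled *Rag1*-/- (log2FC 2.41, edgeR adjusted p = 0.0308). *Il2rb*, the receptor chain for IL-2 and IL-15, had 244 ± 118 CPM and 1121 ± 13.3 CPM (log2FC 2.23, edgeR adjusted p = 0.0353). Further genes of this list were named after their values were seen. Above every WT library in both libraries labelled *Rag1*-/- without being called were *Stat4*, with 3.48, 17.7 and 14.2 CPM in WT and 32.4 and 31.9 CPM in pools 2 and 7 (edgeR adjusted p = 0.162), and *Il18r1* and *Il18rap*, with adjusted p-values of 0.0749 and 0.066. *Myd88* and *Irak4*, which relay the IL-18 signal, and *Hlx*, a factor that works with T-bet, overlapped between genotypes, with log2 fold changes of -0.20, 0.17 and -0.11.

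Of 8 genes for cytokines that drive the program, 5 were tested and none was called by edgeR or by DESeq2, and none had an unadjusted p under 0.05 with either tool. *Il18* had 6.93 ± 2.47 CPM (SD, n = 3) in WT and 4.01 ± 0.298 CPM (SD, n = 2) in the libraries labelled *Rag1*-/- (edgeR adjusted p = 0.283), and *Il15* 5.48 ± 0.934 and 7.58 ± 1.59 CPM (edgeR adjusted p = 0.342). *Il12a*, the IL-12 subunit p35, named after its values were seen, had 9, 3 and 3 counts in WT against 1 and 0 for pools 2 and 7, and was below the filter.

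Downstream, of 20 genes induced by IFN-γ, all tested, 2 were called higher and none lower, with a median log2 fold change of 0.44. With scaling on the pan-leukocyte genes that median became -1.76, and 0 were called higher and 15 lower. That scaling called 13590 of all 19011 genes lower, with a median of -2.21. The median of the list stood 0.45 above that of all genes. *Psmb8*, a subunit of the immunoproteasome, had 21.9 ± 0.963 CPM (SD, n = 3) in WT and 61.3 ± 3.92 CPM (SD, n = 2) in the libraries labelled *Rag1*-/- (log2FC 1.52, edgeR adjusted p = 0.0306). *Socs1*, a feedback inhibitor of the IFN-γ receptor, had 24.7 ± 5.17 and 80.7 ± 4.92 CPM (log2FC 1.74, edgeR adjusted p = 0.0306). The remaining 18 did not pass. Their summed level with the called genes was 750 to 888 CPM in WT and 937 and 1075 CPM in pools 2 and 7.

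**Figure D4:**
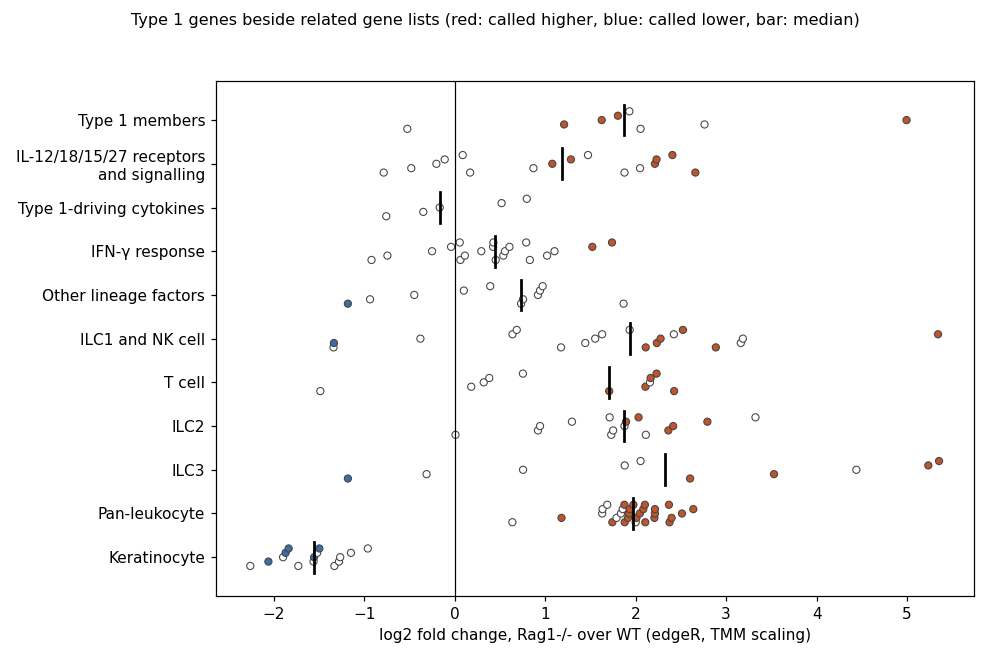
Log2 fold change (horizontal axis, *Rag1*-/- over WT, edgeR with TMM scaling) of the tested genes of the type 1 members and 10 related lists (rows, 1 point per gene). Red points were called higher, blue points lower and open points were not called, and bars are medians, 1.87 for the members, 1.98 for the pan-leukocyte genes and -1.55 for the keratinocyte genes.

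Other lymphocytes that run the type 1 program were assessed by their genes. Of 20 genes of ILC1s and NK cells, 19 were tested, 6 were called higher and 1 lower, and their summed level was 194 to 394 CPM in WT and 936 and 1117 CPM in pools 2 and 7. *Gzma*, a granzyme, had 6, 15 and 0 counts in WT, against 51 and 328 for pools 2 and 7 (log2FC 5.34 ± 0.91, edgeR adjusted p = 0.0309). *Ccl5*, a chemokine of effector lymphocytes, and *Prf1*, the pore-forming perforin, rose by log2 fold changes of 2.89 and 2.23 (edgeR adjusted p = 0.0306 for both). *Itga2*, the integrin chain CD49b, fell by 1.33 on the log2 scale (edgeR adjusted p = 0.036). Its level in WT was 59.0 ± 11.9 CPM (SD, n = 3), against 0.178 ± 0.191 CPM for *Gzma*. The part of other cells in the level of *Itga2* was not tested. *Zfp683*, which encodes Hobit, had at most 3 counts in every library, and *Klrb1c*, which encodes NK1.1 and was named after its values were seen, had 0, 13 and 1 counts in WT against 9 and 44 (edgeR adjusted p = 0.152). The genes named as called higher had no common order of pools 2 and 7. *Gzma* (6.34 and 8.43 CPM) and *Ccl5* (7.95 and 9.61 CPM) were lower in pool 2, and *Prf1* was higher there (8.32 and 6.47 CPM). With scaling on the pan-leukocyte genes the median of the list went from 1.93 to -0.03.

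T cell genes were present in both genotypes. Of 15 listed, 11 were tested, 5 were called higher and none lower, with a median log2 fold change of 1.71 that became -0.47 with scaling on the pan-leukocyte genes, and their summed level was 78.8 to 168 CPM in WT and 512 and 462 CPM in pools 2 and 7. *Cd3g*, *Cd247* and *Trbc2* rose by log2 fold changes of 2.23, 1.71 and 2.43 (edgeR adjusted p = 0.0306 for each), and *Trac* by 2.11 (edgeR adjusted p = 0.0349). Named after their values were seen, *Cd3e*, *Cd3d* and *Trdc* overlapped between genotypes, with log2 fold changes of 0.32, 0.38 and 0.18, and *Cd5* had one of -1.48 (edgeR adjusted p = 0.135), with both pools 2 and 7 below every WT library. *Cd8a* and *Cd8b1*, the chains of the coreceptor of cytotoxic T cells, had at most 2 counts in pools 2 and 7, whereas *Cd8a* had 31, 0 and 2 counts in WT. The gate of the study leaves out cells with CD2 or CD3 signal. The part of ILC1s, NK cells or T cells in the level of *Ifng* and its factors was not tested.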

How the data were processed

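RNA sequencing of 5 libraries of sorted dILC2s was used. According to the series text the authors aligned single-end reads to GRCm38 with STAR 2.5, counted them per gene with featureCounts 1.5.0-p1 and deposited the raw counts without normalization. The release of the annotation differs between the sources used here, and the strand setting of the counting is not given in them. The submitters' processing notes name GRCm38 and GRCm39, and the series text and methods name GRCm38, which is used here. A second deposited table, scaled per library, was not used.

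Genes were filtered with filterByExpr and genotypes compared with edgeR 4.0.16 in R 4.3.3 (TMM, quasi-likelihood test, genotype as the factor, Benjamini-Hochberg adjustment over all 19011 genes), after a check on simulated counts. A call needed an adjusted p under 0.05 and a log2 fold change beyond 1 in size. CPM used total counts without TMM factors. Standard errors were obtained from the fold change and the F statistic. Pools are the replicates, so p-values measure the spread between these pools only. For 4 symbols with several entries the one with the most counts was used. Exon lengths came from GENCODE M21 (GRCm38) and upstream sequence from RefSeq.

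The members, the lists and the motifs were chosen with earlier results of these data known. From each list, up to 4 genes with the smallest p among those called were named (with fewer than 2 called, those with the smallest p), and genes with at most 3 counts in lists of other cells. Some genes that this rule names are not reported here. Alternatives were DESeq2 1.42.0, other scalings (RLE, library size, the pan-leukocyte genes) and other filters (none, or 10 or more counts per library). Further alternatives were thinning to the shallowest library, leaving out each library, and calls by adjusted p without a fold limit. The last used the main fit, so its fold changes and p-values are those of the main fit.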

Additional observations from a re-analysis of the deposited data

How the results depend on the processing

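No paired analysis was made, because the libraries are pools of different mice that the study describes as independent replicates. The number of members called higher, 4, became 2 with RLE scaling, where *Ifng* (adjusted p = 0.0507) and *Ifngr1* (0.0505) missed the threshold, and 1 with scaling on the pan-leukocyte genes, and it ranged from 0 to 3 with 1 library left out. It was 6 with DESeq2, 5 without the filter, and 3 with library size alone, with at least 10 counts in every library and after thinning. The number of all genes called, 1090, became 2459 with DESeq2 (1203 higher and 1256 lower, against 679 and 411), 2645 without the filter and 13606 with scaling on the pan-leukocyte genes, and ranged from 0 to 2409 with 1 library left out. Under the leukocyte scaling the fold change turned negative for *Tbx21* (-0.47), *Runx3* (-0.28), *Ifngr1* (-0.40) and *Ifngr2* (-0.91). It stayed positive for *Ifng*, *Eomes* and *Ncr1*. The median log2 fold change of all genes was -2.21 under that scaling. Over all 98 values of single members under an alternative, 70 kept the direction and stayed called or stayed uncalled. A further 20 kept the direction and lost the call, 4 gained it and 4 changed sign, of which *Runx3*, *Ifngr1* and *Ifngr2* also lost the call. The 70 include the members that the main fit did not call. The 4 called members kept their call in 5 of 11 alternatives for *Ifng*, 6 of 13 for *Ifngr1*, and 8 of 13 for *Ifngr2* and for *Runx3*. The values without a fold limit are those of the main fit and count among the 70. *Ifng* and *Ncr1* were below the filter after thinning, and *Ifng*, *Tbx21*, *Eomes* and *Ncr1* with at least 10 counts in every library. Depth limits *Ifng*, *Eomes* and *Ncr1* most, with at most 17 counts in any WT library.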

Other observations

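Transcription factors of other lymphocyte programs and partners of RUNX factors, 11 genes, held 0 called higher and 1 called lower by edgeR (7 with an unadjusted p under 0.05, and 0 higher and 1 lower with DESeq2), with a median log2 fold change of 0.73. *Ahr*, a ligand-activated factor of type 3 and resident lymphocytes, had 160 ± 17.1 CPM (SD, n = 3) in WT and 68.9 ± 1.17 CPM (SD, n = 2) in the libraries labelled *Rag1*-/- (log2FC -1.18, edgeR adjusted p = 0.0306). *Runx1*, the paralog of *Runx3*, had 65.8 ± 4.49 and 127 ± 29.6 CPM, an adjusted p of 0.0393 and a log2 fold change of 0.97, just under the threshold of 1. *Zbtb7b*, a factor of the helper T cell lineage, had a log2 fold change of -0.93 (edgeR adjusted p = 0.0712). With scaling on the pan-leukocyte genes the median of these factors was -1.52.

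Genes of ILC2s and ILC3s were both represented. Of 15 ILC2 genes, 5 were called higher and none lower, with a median log2 fold change of 1.88 (-0.17 with scaling on the pan-leukocyte genes), among them *Thy1*, *Il13*, *Areg* and *Il5*. Of 10 ILC3 genes, among them *Ncr1*, 4 were called higher (*Il23r*, *Il17f*, *Ccr6* and *Il22*) and 1 lower (*Ahr*), with a median of 2.33 (0.30 with that scaling). None of 10 myeloid and 5 tested B cell genes was called by edgeR, where 0 and 2 had an unadjusted p under 0.05, and DESeq2 called 0 and 1. Their summed levels overlapped between genotypes, at 644 to 1619 CPM in WT and 797 and 1452 CPM in pools 2 and 7 for myeloid genes, and 9.11 to 25.2 against 26.5 and 11.6 CPM for B cell genes, with *Cd79a* and *Pax5* at 3 counts or fewer in pools 2 and 7. *Cd79b*, named after its values were seen, held 31 and 29 counts there against 27, 17 and 12 in WT (log2FC 2.13, edgeR adjusted p = 0.134).

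The genes whose pattern over the 5 libraries was most like that of a member were found by the root mean square difference of centred log2 CPM. For *Eomes* they were *Nsg2*, *Hcls1* and *Cd52* (differences of 0.08, 0.10 and 0.12), of which *Hcls1* and *Cd52* are leukocyte genes and *Cd52* is in the pan-leukocyte list. For *Tbx21* they were *Tmem121*, *9130208D14Rik* and *Gm6637* (0.13, 0.16 and 0.16). For *Ifng* they were *Apol7e*, *Cacna1b* and *Efcab3* (0.64, 0.72 and 0.76), each with at most 21 counts in any library. *Tbx21* ranked 171st and *Eomes* 423rd of 19011 genes in likeness to *Ifng*, with differences of 1.36 and 1.52. In the other direction, at the same differences, *Ifng* ranked 13642nd in likeness to *Tbx21* and 10607th in likeness to *Eomes*. All patterns rest on the same 5 libraries, between which leukocyte RNA also differed.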
